A study of Homo sapiens with 9 samples.

Results

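The genes described here are splicing factors of the HNRNP and SRSF families with 5 close partners, PTBP1, PTBP2, PTBP3, TRA2A and TRA2B. A gene was a member when a probe set of the array carried its symbol and no other; pseudogenes and symbols holding a hyphen were left out, and the probe set with the highest mean over all arrays stood for the gene. This gave 34 members of 19775 genes with such a probe set: 19 HNRNP genes, 10 SRSF genes, and the 5 partners. The rule uses symbols and no measured change. SRSF2, SRSF9 and HNRNPH2 are read only by probe sets that carry several symbols and were not used.

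RNA came from Daudi cells, an established Burkitt lymphoma B-cell line, on 9 arrays. There were 3 arrays of Slc7a5-sh cells, which carried a short hairpin RNA against SLC7A5, the light chain of a transporter of large neutral amino acids. There were 3 arrays of C-Myc-sh cells, with a hairpin against the transcription factor MYC, used by the study as its positive control. The reference was 3 arrays of Ctrl-sh cells with a control hairpin. All 3 groups were infected and then kept under puromycin for 48 h. The titles call the arrays biological replicates without saying whether they came from separate infections, so p-values measure the spread between these samples. How many hairpins were used per target is not given in the sources used here.

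Signals are on the log2 scale, 1 per probe set and array, each array having been scaled by the authors to one target, so they are relative levels. Array medians lay between 6.05 and 6.26, and the correlation between arrays of one group, taken over 11250 genes that are no independent replicates, was 0.972 to 0.977. The number of arrays limits the precision. MYC was at 12.87 ± 0.072 in Slc7a5-sh, 12.13 ± 0.0061 in C-Myc-sh and 13.22 ± 0.054 in Ctrl-sh (SD, n = 3), and SLC7A5 at 11.89 ± 0.058, 11.80 ± 0.033 and 12.21 ± 0.15 in the same groups. Both targeted genes were therefore lower in both knockdowns. B-cell markers were well above the filter level of 5.77, at mean signals of 8.55 to 14.2 in 6 of 6 measured genes, while at most 3 of 9 T and NK cell, 1 of 7 myeloid and 4 of 9 epithelial and fibroblast markers reached that level in any group. In a culture of 1 cell line, a lower signal in all cells and a loss confined to some of them cannot be told apart.

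Pre-mRNA splicing removes introns and joins exons, and these genes encode proteins that steer where the spliceosome acts. SR proteins, encoded by the SRSF genes, carry domains rich in arginine and serine and mostly promote the use of exons they bind. The hnRNPs coat nascent RNA and often hold the spliceosome away from exons, and the balance between both kinds of protein sets many splice choices. PTBP1, HNRNPA1 and HNRNPA2B1 are known for steering the choice between mutually exclusive exons of the pyruvate kinase gene PKM, and MYC has been linked to the expression of several of these factors in other tumour cells. Many of the genes also limit their own output by splicing their transcripts into forms that nonsense-mediated decay removes.

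In C-Myc-sh cells most splicing factors were lower. Of 33 tested members, 20 fell and 2 rose against Ctrl-sh (limma, Benjamini-Hochberg adjusted p under 0.05), where 26.2% of all tested genes fell, 28.7% rose and 54.9% did either. The median log2 change of the members was -0.31, beside 0.045 over all tested genes. In 21 members all C-Myc-sh arrays lay below all Ctrl-sh arrays and in 2 they lay above, which was so for 29.1% and 33.2% of all tested genes. Of 19 hnRNP genes 14 fell and HNRNPA1 alone rose, 3 of 9 tested SRSF genes fell, and of the 5 partners 3 fell and TRA2A rose. The size was modest: the members that fell kept between 43.9% and 88.4% of their Ctrl-sh signal.

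In Slc7a5-sh cells fewer of these genes were called. There 8 of 33 members fell and 2 rose, where 11% of all tested genes fell, 14.3% rose and 25.3% did either, with a median of -0.047 for the members and 0.029 for all tested genes. HNRNPA0 and PTBP3 had the largest falls among these 8, to 65.3% and 70.9% of the control signal. The arrays of 10 members lay wholly below Ctrl-sh and those of 6 wholly above it, beside 18% and 21.8% of all tested genes. The number of members that fell dropped to 3 with eBayes without a trend, to 4 without Ctrl-sh replicate 1 and to 5 without Ctrl-sh replicate 2. These were 9.09%, 12.1% and 15.2% of the members, beside 8.2%, 8.36% and 8.48% of all tested genes under the same settings. With eBayes without a trend the share of members was thus near that of all tested genes. The comparisons with Ctrl-sh share its 3 arrays.

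**Figure D1:**
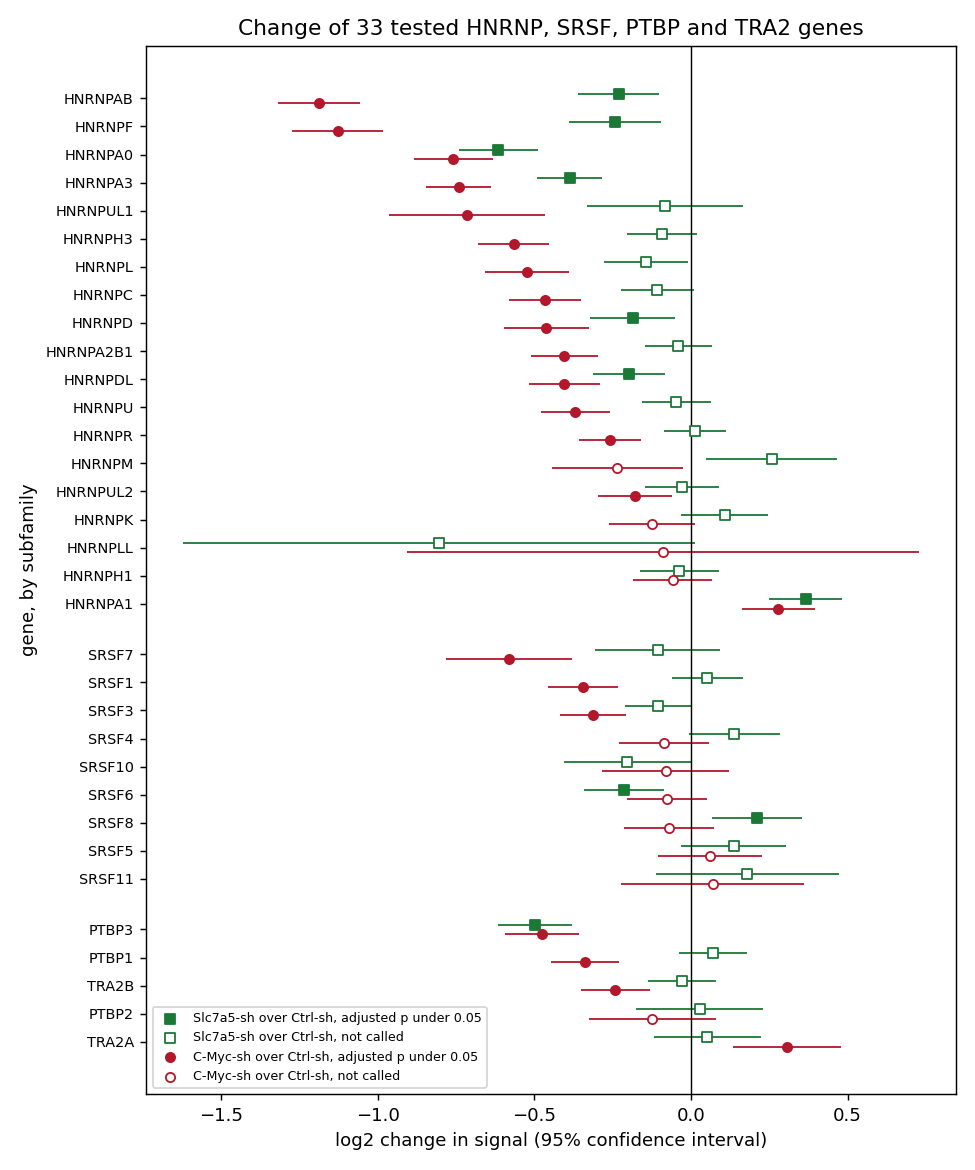
Log2 change in signal of the 33 tested splicing factor genes with its 95% confidence interval, in Slc7a5-sh (squares) and C-Myc-sh (circles) over Ctrl-sh, grouped by family and ordered by the C-Myc-sh change; filled symbols have an adjusted p under 0.05. In C-Myc-sh 20 genes fell, with HNRNPAB (-1.19) and HNRNPF (-1.13) farthest left, while HNRNPA1 lay to the right in both comparisons.

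The canonical E-box CACGTG, the sequence that MYC with its partner MAX is known to bind, was searched in the 250 bases upstream of the starts that RefSeq (GRCh38.p14) gives for 32 of the 34 members. The motif reads the same on both strands. It was present for 5 of the 32 (15.6%), beside 2110 of 27305 genes (7.73%), and all 5 are hnRNP genes. The 27305 are all genes given a start, expressed in these cells or not, while 33 of the 34 members passed the signal filter. A gene with several starts counted when any of them held the motif. The shares are therefore of unlike sets, and a share among expressed genes alone was not taken. The stretches that hold it are shown with the motif in capitals. In C-Myc-sh 4 of these 5 genes fell, beside 14 of all 19 hnRNP genes, so their count is near that of the family.

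HNRNPA3 (chr2:177212696-177212755, + strand): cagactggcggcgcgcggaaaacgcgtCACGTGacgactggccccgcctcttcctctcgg
HNRNPD (chr4:82373992-82374045, - strand): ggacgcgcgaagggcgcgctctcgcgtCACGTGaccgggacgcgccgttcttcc
HNRNPDL (chr4:82430349-82430408, - strand): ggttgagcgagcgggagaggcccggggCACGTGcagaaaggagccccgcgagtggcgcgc
HNRNPDL, second start (chr4:82430557-82430616, - strand): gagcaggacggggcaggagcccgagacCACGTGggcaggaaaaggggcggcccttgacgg
HNRNPH3 (chr10:68331616-68331675, + strand): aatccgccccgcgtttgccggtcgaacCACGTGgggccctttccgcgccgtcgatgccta
HNRNPM (chr19:8444906-8444965, + strand): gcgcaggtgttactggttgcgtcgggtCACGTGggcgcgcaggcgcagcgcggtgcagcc

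The first base of the motif lay 71 bases upstream of the start in HNRNPA3, 27 in HNRNPD, 50 in HNRNPH3 and 42 in HNRNPM, and 156 and 127 bases upstream of the 2 starts of HNRNPDL. HNRNPA3, HNRNPD, HNRNPDL and HNRNPH3 fell in C-Myc-sh by 0.40 to 0.74 on the log2 scale, and HNRNPM was not called. HNRNPAB and HNRNPF, with the largest falls, held no CACGTG in this window. A match describes these letters and is no measurement of binding.

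The 4 members with the largest falls in C-Myc-sh were HNRNPAB, HNRNPF, HNRNPA0 and HNRNPA3. HNRNPA0 and HNRNPA3 are hnRNPs of the A/B type, which bind UAG-like motifs and often silence exons. HNRNPAB had signals of 14.23, 14.00 and 14.15 in Slc7a5-sh cells and 13.16, 13.14 and 13.22 in C-Myc-sh cells, against 14.43, 14.32 and 14.32 in Ctrl-sh. The C-Myc-sh arrays stood apart far below the rest, and the Slc7a5-sh arrays lay below Ctrl-sh by less. Its log2 change was -1.19 in C-Myc-sh (SE 0.061, limma adjusted p = 6.2e-10) and -0.23 in Slc7a5-sh (limma adjusted p = 0.0122). The Slc7a5-sh call was lost with eBayes without a trend and without Ctrl-sh replicate 1 (-0.28 to -0.17 over the 6 omissions of an array).

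HNRNPA0, an RNA-binding protein of the A/B type that also acts on mRNA stability, had signals of 12.54, 12.49 and 12.65 in Slc7a5-sh cells and 12.37, 12.49 and 12.39 in C-Myc-sh cells, against 13.21, 13.12 and 13.19 in Ctrl-sh. Both knockdowns lay below every control array, and they overlapped each other. The changes were -0.62 in Slc7a5-sh (SE 0.059, limma adjusted p = 8.1e-06) and -0.76 in C-Myc-sh (limma adjusted p = 4.8e-08). HNRNPA3, an A/B-type protein also found on transported mRNAs, had 13.35, 13.31 and 13.29 in Slc7a5-sh cells and 12.95, 12.99 and 12.95 in C-Myc-sh cells, against 13.68, 13.68 and 13.76 in Ctrl-sh. The 3 groups did not overlap, with Slc7a5-sh in the middle, at changes of -0.39 in Slc7a5-sh (limma adjusted p = 5.9e-05) and -0.74 in C-Myc-sh (limma adjusted p = 7.0e-09).

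HNRNPA2B1, which also packages RNA for transport, read differently in each knockdown. Its signals were 14.82, 14.82 and 14.88 in Slc7a5-sh cells and 14.43, 14.54 and 14.45 in C-Myc-sh cells, against 14.90, 14.82 and 14.92 in Ctrl-sh. The Slc7a5-sh arrays overlapped the controls and the C-Myc-sh arrays lay below them, with changes of -0.04 in Slc7a5-sh (95% confidence interval -0.15 to 0.067) and -0.41 in C-Myc-sh (limma adjusted p = 6.0e-06). The direction of HNRNPA2B1 turns with the probe sets used: their mean gave 0.43 in Slc7a5-sh, which was called, and 0.29 in C-Myc-sh, which was not. That mean takes in a probe set under the filter level, with a mean signal of 5.55 and changes of 1.26 and 0.64. The probe sets above that level, other than the kept one, changed by 0.15 and 0.34 in Slc7a5-sh and by 0.32 and 0.61 in C-Myc-sh.

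HNRNPA1, among the most studied exon-silencing hnRNPs, was the one hnRNP called higher, and it was so in both knockdowns. It had 13.38, 13.22 and 13.37 in Slc7a5-sh cells and 13.20, 13.26 and 13.26 in C-Myc-sh cells, against 12.97, 12.97 and 12.94 in Ctrl-sh. All knockdown arrays lay above all control arrays, at changes of 0.37 in Slc7a5-sh (SE 0.054, limma adjusted p = 0.000235) and 0.28 in C-Myc-sh (limma adjusted p = 0.000455). This value is uncertain: the probe set is of the _x_at kind, which can bind related transcripts, and RefSeq lists 75 pseudogenes named after HNRNPA1. Without _s_at and _x_at probe sets the changes were 0.26 and 0.10 and neither was called, and centring the arrays on their medians gave 0.15 in C-Myc-sh, also not called. Quantile normalization gave 0.46 there.

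HNRNPC, which binds uridine tracts and keeps cryptic exons out of mRNA, fell in C-Myc-sh to 13.86, 13.96 and 13.94, against 14.42, 14.36 and 14.38 in Ctrl-sh (-0.47, limma adjusted p = 3.2e-06); in Slc7a5-sh it had 14.26, 14.38 and 14.20, a change of -0.11 that did not pass. The C-Myc-sh call of HNRNPC was lost when its probe sets were averaged (-0.21, limma adjusted p = 0.168), and its Slc7a5-sh change was called without _s_at and _x_at probe sets (-0.45, limma adjusted p = 0.00269). HNRNPD, also called AUF1, which binds AU-rich elements and promotes mRNA decay, and its neighbour on chromosome 4, HNRNPDL, fell in both knockdowns. In C-Myc-sh HNRNPD was at -0.46 and HNRNPDL at -0.40, and in Slc7a5-sh they were at -0.19 (limma adjusted p = 0.0433) and -0.20 (limma adjusted p = 0.0139). The Slc7a5-sh call of HNRNPD was lost without any one of Ctrl-sh replicates 1 and 2 and Slc7a5-sh replicates 2 and 3, with changes of -0.25 to -0.13 over the 6 omissions, and also with median centring, with no filter, with eBayes without a trend, with averaged probe sets (-0.21) and with the 6 arrays compared alone. Without _s_at and _x_at probe sets HNRNPD was higher in both, by 0.59 in Slc7a5-sh and by 1.23 in C-Myc-sh. There a single probe set stands for the gene, and others that are neither _s_at nor _x_at went the other way. At mean signals of 11.44 and 9.74, they changed by -0.84 and -1.07 in Slc7a5-sh and by -1.38 and -1.42 in C-Myc-sh. A further one, at 5.84, was called in neither. The call of HNRNPDL was lost with median centring, with eBayes without a trend and without Slc7a5-sh replicate 2 (-0.24 to -0.17).

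HNRNPF and the HNRNPH proteins bind runs of guanines. HNRNPF had 11.91, 11.76 and 11.93 in Slc7a5-sh cells and 11.09, 10.92 and 10.93 in C-Myc-sh cells, against 12.12, 12.14 and 12.07 in Ctrl-sh. Every C-Myc-sh array was lower than every other array by a wide margin, and Slc7a5-sh lay just below Ctrl-sh, at changes of -1.13 in C-Myc-sh (SE 0.068, limma adjusted p = 3.5e-09) and -0.24 in Slc7a5-sh (limma adjusted p = 0.0176). The Slc7a5-sh call was lost with eBayes without a trend and without Ctrl-sh replicate 1, Ctrl-sh replicate 2 or Slc7a5-sh replicate 2 (-0.27 to -0.19 over the 6 omissions). HNRNPH3 fell by 0.57 on the log2 scale in C-Myc-sh (limma adjusted p = 3.0e-07). HNRNPH1, a regulator of the same kind, was called in neither knockdown (-0.037, 95% confidence interval -0.16 to 0.088, in Slc7a5-sh and -0.058, -0.18 to 0.067, in C-Myc-sh), although with median centring it was called in C-Myc-sh (-0.19). Another of its probe sets, at a mean signal of 11.61, was called lower in C-Myc-sh (-0.44, limma adjusted p = 0.000487).

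Among the remaining hnRNPs, HNRNPUL1, related to the nuclear scaffold protein HNRNPU, had 11.77, 11.46 and 11.71 in Slc7a5-sh cells and 11.16, 10.72 and 11.16 in C-Myc-sh cells, against 11.81, 11.81 and 11.57 in Ctrl-sh. Its C-Myc-sh arrays lay below the others despite a wide spread (-0.72, SE 0.12, limma adjusted p = 9.4e-05). HNRNPU itself (-0.37), HNRNPL, which binds CA repeats (-0.52), HNRNPR (-0.26) and HNRNPUL2 (-0.18) also fell in C-Myc-sh, and none of the 4 was called in Slc7a5-sh. Other probe sets change this for 2 of them: in Slc7a5-sh HNRNPU was called at -0.42 and HNRNPR at -0.24 with averaged probe sets, and at -0.64 and -1.10 without _s_at and _x_at probe sets. The call of HNRNPUL2 was lost under quantile normalization (-0.044) and without Ctrl-sh replicate 1 or C-Myc-sh replicate 2 (-0.21 to -0.15 over the 6 omissions), and that of HNRNPR under quantile normalization (-0.061).

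HNRNPK, a KH-domain protein that binds C-rich RNA, was called in neither knockdown (0.11 in Slc7a5-sh cells and -0.12 in C-Myc-sh cells). It was called in C-Myc-sh with median centring (-0.25), with averaged probe sets (-0.22) and without C-Myc-sh replicate 3 (-0.18). HNRNPM, a regulator that binds GU-rich RNA, had 14.00, 14.03 and 14.40 in Slc7a5-sh cells and 13.48, 13.83 and 13.66 in C-Myc-sh cells, against 13.84, 13.92 and 13.90 in Ctrl-sh. The Slc7a5-sh arrays lay above and the C-Myc-sh arrays below the controls, by 0.26 (limma adjusted p = 0.0674) and -0.24 (limma adjusted p = 0.0533), neither past the threshold. Both passed among genes at or above the 75th percentile of signal and with the 6 arrays compared alone. The Slc7a5-sh change was also called under quantile normalization and without Slc7a5-sh replicate 1 (0.33), and the C-Myc-sh change with median centring (-0.36), with values raised to the filter level and without C-Myc-sh replicate 2 (-0.32). HNRNPLL, known for splicing the CD45 transcript in T cells and plasma cells, had low and scattered signals of 6.59, 5.77 and 7.27 in Slc7a5-sh cells, 6.98, 7.28 and 7.52 in C-Myc-sh cells and 7.30, 7.78 and 6.96 in Ctrl-sh, which overlapped.

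**Figure D2:**
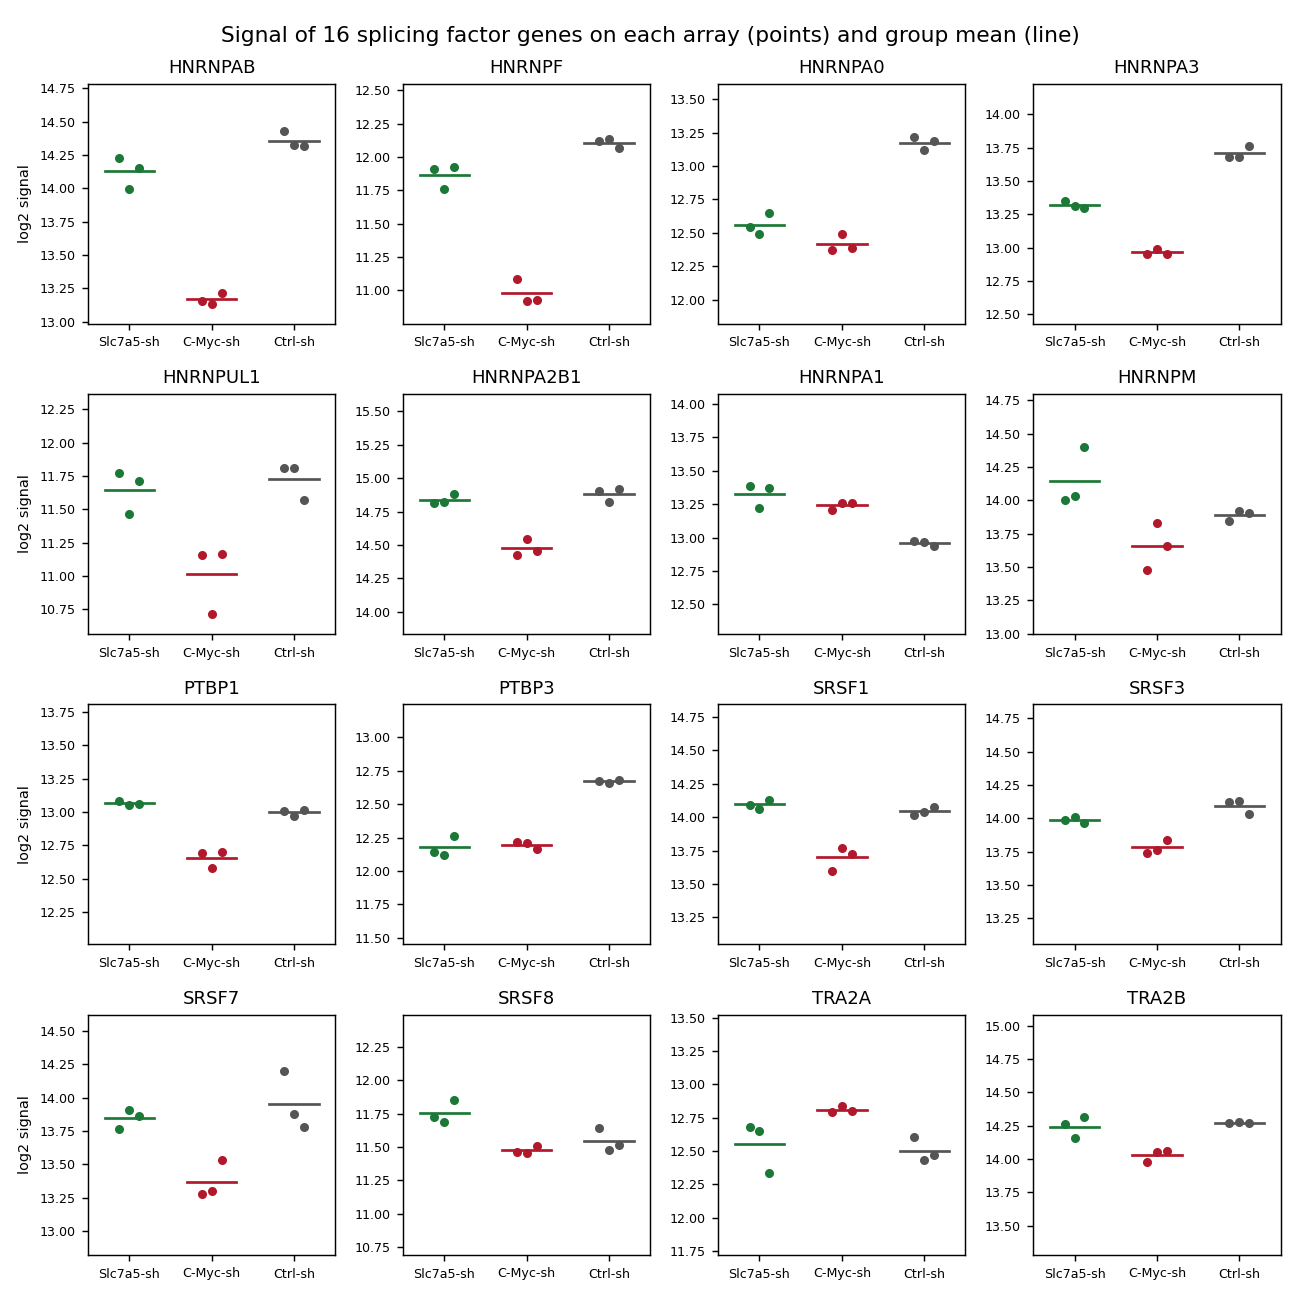
Log2 signal of 16 splicing factor genes, 1 panel each with an axis of equal span, on the 3 arrays of Slc7a5-sh, C-Myc-sh and Ctrl-sh (points) with the group mean (line). C-Myc-sh arrays sit lowest for HNRNPAB, HNRNPF, HNRNPA3, HNRNPUL1, PTBP1 and SRSF1, both knockdowns sit low for HNRNPA0 and PTBP3, and both sit high for HNRNPA1.

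Of the SR protein genes, 3 of 9 tested (33.3%) fell in C-Myc-sh and none rose, beside 26.2% and 28.7% of all tested genes, with a median log2 change of -0.081. In Slc7a5-sh 1 fell and 1 rose (11.1% each), beside 11% and 14.3%, with a median of 0.052. The shares that fell were near those of all tested genes in both knockdowns. SRSF12, whose signals of 4.60, 5.29 and 2.05 in Slc7a5-sh cells, 5.36, 4.69 and 1.90 in C-Myc-sh cells and 3.04, 5.68 and 2.46 in Ctrl-sh lay under the filter level, was the 1 member not tested.

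SRSF1, an SR protein that acts as an oncogene when overexpressed, had 14.09, 14.06 and 14.13 in Slc7a5-sh cells and 13.60, 13.77 and 13.72 in C-Myc-sh cells, against 14.01, 14.04 and 14.08 in Ctrl-sh. The C-Myc-sh arrays lay below all others and the Slc7a5-sh arrays overlapped the controls, at changes of -0.34 in C-Myc-sh (limma adjusted p = 5.3e-05) and 0.052 in Slc7a5-sh (95% confidence interval -0.061 to 0.17). With the mean of all its probe sets SRSF1 was at 0.35 in C-Myc-sh, not called. A probe set with a mean signal of 5.54, under the filter level, is among those averaged. SRSF3, the smallest SR protein, which also links splicing with mRNA export, had 13.98, 14.01 and 13.97 in Slc7a5-sh cells and 13.74, 13.77 and 13.84 in C-Myc-sh cells, against 14.12, 14.13 and 14.03 in Ctrl-sh. It fell in C-Myc-sh (-0.31, limma adjusted p = 6.8e-05), and its -0.11 in Slc7a5-sh did not pass (limma adjusted p = 0.134). With the mean of all its probe sets the C-Myc-sh change was -0.11 and not called.

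SRSF7, an SR protein with a zinc knuckle and likewise an export adaptor, had 13.76, 13.91 and 13.86 in Slc7a5-sh cells and 13.28, 13.30 and 13.53 in C-Myc-sh cells, against 14.20, 13.88 and 13.78 in Ctrl-sh. Its C-Myc-sh arrays were the lowest, at -0.58 (SE 0.094, limma adjusted p = 8.7e-05). In Slc7a5-sh it was not called (-0.11), but was at -0.70 and called without _s_at and _x_at probe sets. SRSF8, a relative of SRSF2, rose in Slc7a5-sh to 11.72, 11.69 and 11.85, against 11.64, 11.48 and 11.52 in Ctrl-sh, while C-Myc-sh had 11.47, 11.45 and 11.51. That change of 0.21 (limma adjusted p = 0.0321) lost its call without any one of Ctrl-sh replicates 2 and 3 and Slc7a5-sh replicates 1 and 3 (0.16 to 0.26 over the 6 omissions), with median centring (0.20), with the mean of all probe sets (0.18), with no filter and with eBayes without a trend, and turned to -0.14, not called, without _s_at and _x_at probe sets, where its C-Myc-sh change was called at -0.42. SRSF6 fell in Slc7a5-sh (-0.21, limma adjusted p = 0.0169), a call lost without Ctrl-sh replicate 1 or Ctrl-sh replicate 2 (-0.23 to -0.20 over the 6 omissions), with eBayes without a trend and when its probe sets were averaged (-0.11). In C-Myc-sh SRSF6 was not called (-0.078), but was with median centring (-0.21) and with averaged probe sets (-0.22).

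SRSF4, SRSF5, SRSF10 and SRSF11 were called in neither knockdown. By the probe sets kept, their changes lay between -0.20 and 0.18 in Slc7a5-sh and between -0.086 and 0.069 in C-Myc-sh. Other probe sets of SRSF10 were called lower in C-Myc-sh, at -0.95 and -0.24, the first also in Slc7a5-sh (-0.51). Another probe set of SRSF5 was called higher in C-Myc-sh (0.20). Calls arose in C-Myc-sh for SRSF4 with median centring (-0.22) and for SRSF10 with averaged probe sets (-0.27), and in Slc7a5-sh for SRSF11 without _s_at and _x_at probe sets (-0.31) and for SRSF10 without Slc7a5-sh replicate 2 (-0.33). SRSF11 was the most scattered of these, with 13.99, 13.78 and 13.45 in Slc7a5-sh cells, 13.82, 13.50 and 13.57 in C-Myc-sh cells and 13.65, 13.78 and 13.25 in Ctrl-sh.

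The PTB proteins bind pyrimidine tracts and repress neighbouring exons. PTBP1, the ubiquitous form, had 13.08, 13.05 and 13.06 in Slc7a5-sh cells and 12.69, 12.58 and 12.70 in C-Myc-sh cells, against 13.01, 12.97 and 13.01 in Ctrl-sh. It fell in C-Myc-sh (-0.34, limma adjusted p = 4.6e-05), and in Slc7a5-sh its arrays lay slightly above the controls, by 0.07, which did not pass (limma adjusted p = 0.354). With the mean of its probe sets the C-Myc-sh change was -0.70 and not called, but this mean includes probe sets under the filter level, with mean signals of 4.87 and 2.95. A further 5 probe sets carry PTBP1 beside another symbol and were not used.

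PTBP3, a PTB paralog first known from blood cells, was the partner that fell in both knockdowns. It had 12.14, 12.12 and 12.26 in Slc7a5-sh cells and 12.21, 12.21 and 12.17 in C-Myc-sh cells, against a tight 12.68, 12.66 and 12.68 in Ctrl-sh. The knockdown arrays overlapped each other and lay well below the controls, at -0.50 in Slc7a5-sh (limma adjusted p = 2.7e-05) and -0.48 in C-Myc-sh (limma adjusted p = 3.4e-06). With the mean of its 5 probe sets the changes were -0.19 and -0.044 and neither was called. PTBP2, the form typical of neurons, was called in neither (0.027 in Slc7a5-sh cells and -0.12 in C-Myc-sh cells), but was called in C-Myc-sh with median centring (-0.25) and with averaged probe sets (-0.32).

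TRA2A and TRA2B are paralogous SR-like proteins that activate exons with GAA-rich enhancers, and in C-Myc-sh they moved in opposite directions. TRA2A had 12.68, 12.65 and 12.34 in Slc7a5-sh cells and 12.79, 12.84 and 12.80 in C-Myc-sh cells, against 12.60, 12.43 and 12.47 in Ctrl-sh. The C-Myc-sh arrays lay above every other array, at 0.31 (SE 0.08, limma adjusted p = 0.00454), a call lost with median centring (0.18). TRA2B fell to 13.98, 14.05 and 14.06 in C-Myc-sh, against 14.27, 14.28 and 14.27 in Ctrl-sh (-0.24, limma adjusted p = 0.000968), a call lost under quantile normalization (-0.020). In Slc7a5-sh neither was called (0.052, 95% confidence interval -0.12 to 0.22, for TRA2A and -0.028, -0.14 to 0.081, for TRA2B). Another probe set of TRA2B, at a mean signal of 13.14, was called lower in Slc7a5-sh (-0.23, limma adjusted p = 0.00821).

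The direct comparison asked where the knockdowns differ from each other. C-Myc-sh was lower than Slc7a5-sh in 22 of 33 members and higher in 1, where 25.1% of all tested genes were lower, 24.4% higher and 49.5% either. All C-Myc-sh arrays lay below all Slc7a5-sh arrays in 22 members and above them in 2, beside 27.7% and 28.8% of all tested genes. The median difference was -0.23 for the members and 0.025 for all tested genes. The largest differences among the members called lower were those of HNRNPAB (-0.96, limma adjusted p = 9.7e-09), HNRNPF (-0.89, limma adjusted p = 7.1e-08), HNRNPUL1 (-0.63), HNRNPM (-0.49, limma adjusted p = 0.000639) and SRSF7 (-0.47). With averaged probe sets HNRNPM was at -0.020 and SRSF7 at -0.086 and neither was called. HNRNPLL differed by 0.71 with an SE of 0.38 and was not called. TRA2A was the gene that was higher (0.25, limma adjusted p = 0.0162), a call lost without Slc7a5-sh replicate 3 or C-Myc-sh replicate 2 (0.15 to 0.32 over the 6 omissions), with median centring (0.14) and with eBayes without a trend. All 5 probe sets of TRA2A at or above the filter level were called higher in this comparison, among them those at 0.98 and 0.77. The probe set with a mean signal of 5.79 passed the filter only through C-Myc-sh.

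Several more genes were not called between the knockdowns. HNRNPA1 differed by -0.086 (95% confidence interval -0.20 to 0.029), PTBP3 by 0.022 (-0.097 to 0.14), HNRNPA0 by -0.14 (-0.27 to -0.017, limma adjusted p = 0.0574) and HNRNPH1 by -0.021 (-0.15 to 0.10). Other single probe sets were called for HNRNPH1 (-0.60), HNRNPA0 (-0.64) and HNRNPA1 (0.31). HNRNPK (-0.23, limma adjusted p = 0.00762), SRSF4 (-0.23) and SRSF8 (-0.28) were lower in C-Myc-sh than in Slc7a5-sh although C-Myc-sh was not called against Ctrl-sh. The difference of HNRNPK was lost under quantile normalization (-0.027) and with eBayes without a trend. That of SRSF4 was lost under quantile normalization (-0.16), without Slc7a5-sh replicate 3 or C-Myc-sh replicate 2 (-0.26 to -0.16 over the 6 omissions) and with averaged probe sets (0.55), and that of SRSF8 without _s_at and _x_at probe sets (-0.27). The averaged probe sets of SRSF4 include one under the filter level, with a mean signal of 4.40. With median centring HNRNPA0 (-0.26), HNRNPA1 (-0.20) and PTBP2 (-0.27) were called lower too, HNRNPA0 also with averaged probe sets (-0.29) and among genes at or above the 75th percentile. With quantile normalization SRSF6 (0.23) and SRSF10 (0.25) were called higher, as were SRSF6 without C-Myc-sh replicate 3 (0.17) and SRSF10 without Slc7a5-sh replicate 2 (0.24). The count of lower members depends on the scaling and the probe sets: it was 13 under quantile normalization, 25 with median centring and 13 when probe sets were averaged. These were 39.4%, 75.8% and 40.6% of the members tested, beside 26%, 30.1% and 19.9% of all tested genes.

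Scaling also moved the whole distribution. Centring each array on its median shifted the median of all tested genes by -0.13 in C-Myc-sh over Ctrl-sh and by -0.12 in C-Myc-sh over Slc7a5-sh. With it 31.8% of all tested genes fell and 21.8% rose in C-Myc-sh over Ctrl-sh, and 26 members fell and 0 rose. With quantile normalization 17 members fell and 2 rose in that comparison, where 27.5% of all tested genes fell and 27.4% rose. Members are mostly high-signal genes: among the 7336 genes at or above the 75th percentile of signal, 21 of 32 members fell in C-Myc-sh, beside 35.5% of those genes.

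The members have 135 probe sets with a single symbol, of which 118 were at or above the filter level, and these did not all move alike; this comparison was added after the values were seen. Fitted over all 27307 probe sets at that level, 63 of the 118 fell in C-Myc-sh against Ctrl-sh and 15 rose, where 20.7% of all probe sets fell and 25.1% rose. In Slc7a5-sh 27 fell and 9 rose, where 8.51% of all probe sets fell and 9.93% rose. Between C-Myc-sh and Slc7a5-sh 55 were lower and 13 higher, beside 18.9% and 20.9%. In 6 of 30 members with at least 2 such probe sets, 1 probe set fell and another rose in C-Myc-sh, beside 2.83% of 5858 such genes. The members among these genes have more such probe sets, a mean of 3.83 beside 2.86. Among genes with 4 or more, the count was 5 of 17 members, beside 7.19% of 1265 genes. In Slc7a5-sh it was 3 of 30 members (HNRNPD, HNRNPR and SRSF1), beside 1.28%, and 2 of 17 with 4 or more, beside 3.95%. Between C-Myc-sh and Slc7a5-sh it was 5 of 30, beside 2.01%, and 4 of 17, beside 5.53%.

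The 6 genes were HNRNPA2B1, HNRNPD, HNRNPM, SRSF1, SRSF3 and SRSF7. For SRSF1, 5 probe sets fell in C-Myc-sh, while another was at 9.60 ± 0.28, against 7.68 ± 0.27 in Ctrl-sh (SD, n = 3), a change of 1.92 (SE 0.20, limma adjusted p = 1.8e-06), and a further one was called higher too (limma adjusted p = 0.000468). The first also rose in Slc7a5-sh, by 0.92. The further one was at 6.67 in Slc7a5-sh cells, 7.48 in C-Myc-sh cells and 5.22 in Ctrl-sh, under the filter level, so it passed only through the groups where it is high.

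In HNRNPD, HNRNPA2B1 and SRSF7 the probe sets that rose were well above the filter level in every group. For HNRNPD, 1 probe set rose to 12.68 ± 0.031 in C-Myc-sh, against 11.44 ± 0.03 in Ctrl-sh (SD, n = 3; log2 change 1.23, limma adjusted p = 4.4e-10), while 5 other probe sets of HNRNPD fell by 0.46 to 1.42. For HNRNPA2B1, the probe sets other than the kept one rose by 0.61 and 0.32 where they reached the filter level. For SRSF7, 1 probe set rose by 0.69, to 11.62 ± 0.071 in C-Myc-sh, against 10.94 ± 0.022 in Ctrl-sh (SD, n = 3), and another changed by -0.92. In SRSF3 and HNRNPM they were of low signal. For SRSF3, 1 probe set rose by 1.38 while 4 others changed by -0.63 to -0.31, and it was at 7.74 in C-Myc-sh, against 6.36 in Ctrl-sh. For HNRNPM, 1 probe set changed by -0.35 and another was called higher, at 7.38 in C-Myc-sh, against 5.48 in Ctrl-sh. The Ctrl-sh level lies under the filter level, so this probe set passed only through the groups where it is high, and it alone puts HNRNPM among the 6 genes. In Slc7a5-sh, HNRNPR had 1 probe set at 0.37 and another at -1.10, while the kept one did not pass. Which part of each transcript these probe sets read was not tested.

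Other genes changed in 1 direction by every probe set at or above the filter level. Of the 5 probe sets of TRA2A, 4 rose in C-Myc-sh by 0.31 to 0.95. The 5th was called higher as well, at 6.79 in C-Myc-sh, against 5.36 in Ctrl-sh, but it passed the filter only through C-Myc-sh. Every probe set at or above the filter level fell in C-Myc-sh for HNRNPA3, HNRNPDL, HNRNPH3, HNRNPL, HNRNPR and HNRNPUL1. How often all probe sets of a gene fell, or all rose, was not counted over all genes, so these names have no share beside them. HNRNPAB and HNRNPF, the genes with the largest falls, are each read by 1 probe set.

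**Figure D3:**
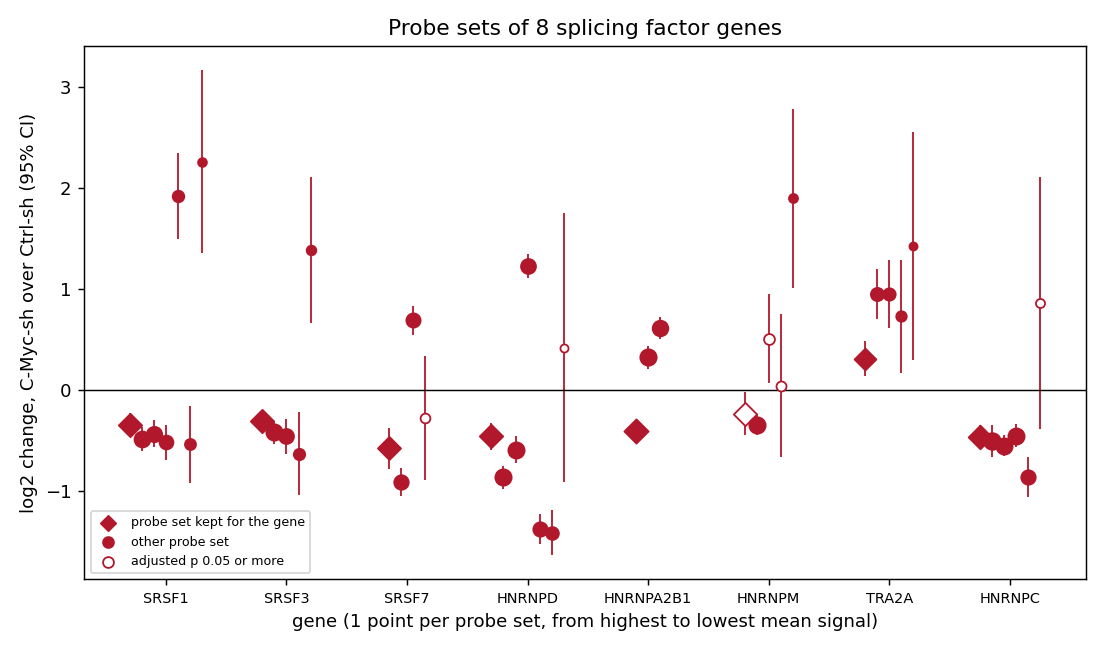
Log2 change in C-Myc-sh over Ctrl-sh for each probe set at or above the filter level of 8 splicing factor genes, with the 95% confidence interval; diamonds mark the probe set kept for the gene, larger points have higher signal and open points an adjusted p of 0.05 or more. SRSF1, SRSF3, SRSF7, HNRNPD, HNRNPA2B1 and HNRNPM have filled points on both sides of 0, and all 5 points of TRA2A lie above it.

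Other splicing genes were described from 6 lists written from general knowledge. Beside their counts stand 26.2% lower and 28.7% higher of all tested genes in C-Myc-sh, and 11% and 14.3% in Slc7a5-sh. The Sm core, the protein ring of the snRNPs, and the proteins that assemble it had 16 of 18 tested members lower (88.9%) in C-Myc-sh and 0 higher, with a median log2 change of -0.49. SNRPF of the ring changed by -1.12 (limma adjusted p = 2.0e-10) and WDR77, the partner of the methyltransferase PRMT5, by -1.07 (limma adjusted p = 1.2e-08). In Slc7a5-sh 5 fell and 1 rose, with a median of -0.037, SNRPD1 at -0.30 and CLNS1A, which chaperones Sm proteins, at -0.25.

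The U1 and U2 snRNPs and the factors that recognise the 3′ splice site had 9 of 19 members lower (47.4%) and 1 higher in C-Myc-sh, with a median of -0.20, the U1 proteins SNRPA at -1.19 and SNRPC at -0.70. In Slc7a5-sh 3 fell and 1 rose, with a median of -0.08, the U2 protein SNRPA1 at -0.41 and SF3B5 at -0.31. The tri-snRNP and catalytic spliceosome had 16 of 32 lower (50%) and 7 higher (21.9%) in C-Myc-sh, with a median of -0.30, LSM7 at -1.18 and LSM4 at -0.92, both of the ring that binds U6. In Slc7a5-sh 4 fell and 7 rose, with a median of 0.086, the U4/U6 protein PRPF3 at 0.76 and BCAS2 at 0.34.

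The SR import receptor TNPO3, which rose in C-Myc-sh (0.31), was listed with the kinases that phosphorylate SR proteins. In that list, TNPO3 included, more genes rose than fell in C-Myc-sh. There 5 of 8 rose (62.5%) and 2 fell (25%), with a median of 0.27, with the cytoplasmic kinase SRPK1 at -0.85 (limma adjusted p = 7.0e-09) and the nuclear kinase CLK1 at 1.19 (limma adjusted p = 2.5e-08). In Slc7a5-sh 3 rose and 1 fell, with a median of 0.077, CLK1 at 0.75 and CLK4 at 0.47. SRPK1 was at 12.51 ± 0.0083 in Slc7a5-sh cells and 11.64 ± 0.066 in C-Myc-sh cells, against 12.49 ± 0.036 in Ctrl-sh (SD, n = 3).

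Other splicing regulators had 17 of 41 members lower (41.5%) and 8 higher (19.5%) in C-Myc-sh, with a median of -0.097, DAZAP1 at -1.17 and SYNCRIP, a close relative of HNRNPR, at -0.95. In Slc7a5-sh 5 fell and 10 rose, with a median of -0.019, MBNL3 at 0.62 and KHSRP at -0.41. Of the exon junction complex and nonsense-mediated decay factors, 8 of 15 listed genes were tested: in C-Myc-sh 3 fell and 3 rose, with the junction helicase EIF4A3 at -0.77 and MAGOHB at -0.86, and in Slc7a5-sh 2 fell and 3 rose, with SMG5 at 0.89 and EIF4A3 at -0.52. With 8 genes, a share of 37.5% in either direction in C-Myc-sh is within 1 gene of that of all tested genes.

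**Figure D4:**
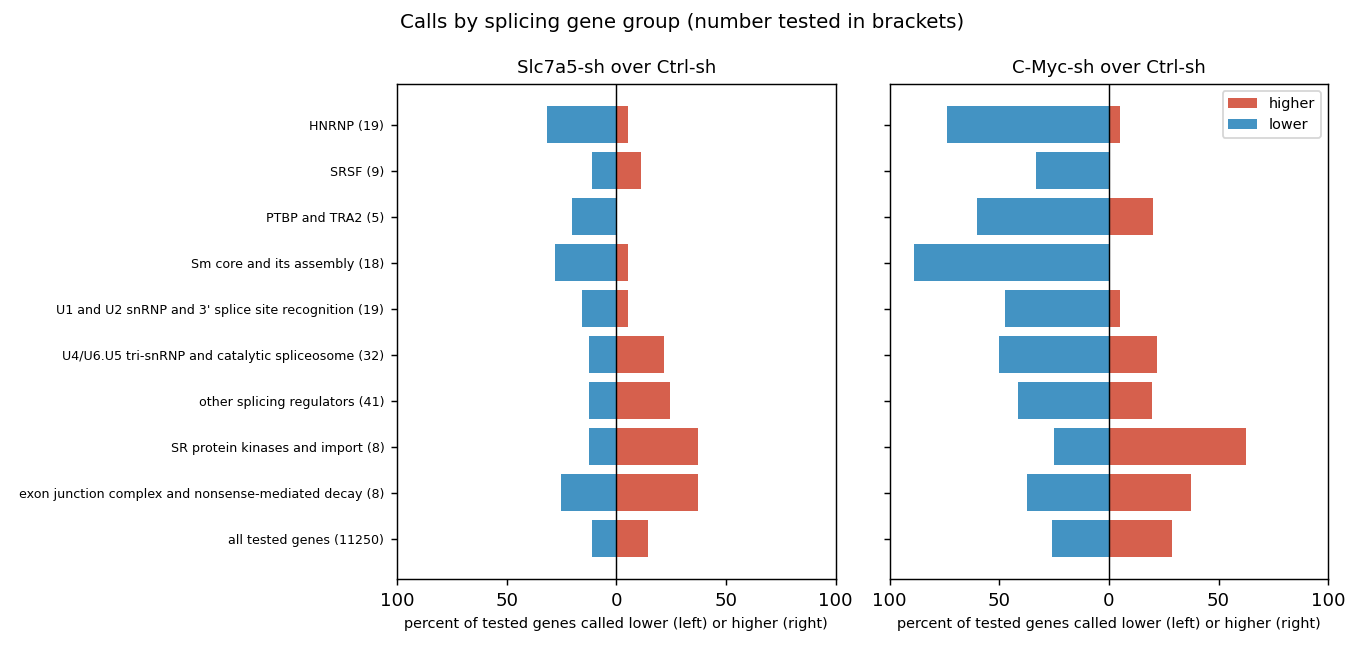
Percent of tested genes called higher (to the right) or lower (to the left) in Slc7a5-sh over Ctrl-sh and C-Myc-sh over Ctrl-sh, for the 3 member groups, 6 lists of other splicing genes and all 11250 tested genes, with the number tested in brackets. In C-Myc-sh the bars to the left are longest for the Sm core list (16 of 18) and HNRNP genes (14 of 19), and the SR kinase list has the longest bar to the right (5 of 8).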

How the data were processed

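The authors deposited log2 signals, 1 per probe set and array, which the submitters' processing notes name as made with MAS5, without a version. Per the labels' protocols, total RNA was labelled from the 3′ end by in vitro transcription. Log base and scaling were read from the values: back on a linear scale, every array had the same trimmed mean of 497 (2% off each end). Gene symbols came from the platform annotation: 41091 of 54613 probe sets had 1 symbol, 1801 several and 11721 none. Of the 41091, 41037 matched RefSeq by gene ID, among them all 34 members.

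Genes entered the tests when their probe set averaged 5.77 or more, the middle value among the averages of all probe sets, which left 11250. R 4.3.3 and limma 3.58.1 fitted 3 group means over 9 arrays (lmFit, eBayes with trend, 6 residual and 8.21 prior degrees of freedom), two-sided, with Benjamini-Hochberg adjustment over all tested genes and a call at an adjusted p under 0.05. The fit was tested on simulated data. Values on each array are given for HNRNPA1, HNRNPA2B1, PTBP1, SRSF1 and SRSF3, for the 5 highest and 5 lowest called members of each comparison, and for further members chosen after their values were seen; list examples are the 2 genes with the smallest p. The members and lists were chosen with earlier results of these data known. Alternatives covered scaling, filter, probe set, eBayes trend, arrays used and omission of single arrays. Same-numbered arrays were not paired: their deviations from the group means correlated at -0.023 to 0.018.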

Additional observations from a re-analysis of the deposited data

How the results depend on the processing

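Of 1554 values of single members under other settings, 1415 kept their side of the threshold, 80 lost and 42 gained a call, and 17 changed sign where the usual or the other setting made a call. Over single omitted arrays, the members lower in C-Myc-sh over Ctrl-sh numbered 19 to 21 and those higher 2 to 2, with medians of -0.34 to -0.29. In Slc7a5-sh over Ctrl-sh 4 to 8 were lower and 1 to 2 higher (-0.066 to -0.043), and in C-Myc-sh over Slc7a5-sh 20 to 24 and 0 to 2 (-0.27 to -0.23). Of all tested genes 24.0% to 25.1% were lower and 26.2% to 27.1% higher in C-Myc-sh over Ctrl-sh. For Slc7a5-sh over Ctrl-sh these shares were 8.2% to 10.1% and 11.7% to 13.2%. Between the knockdowns they were 23.1% to 24.1% and 21.3% to 23.3%.

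In Slc7a5-sh over Ctrl-sh the members higher numbered 1 with median centring, with no filter and with eBayes without trend, which also gave 3 lower. Of all tested genes 11.4%, 7.31% and 11.2% were higher under these settings, and 8.2% were lower with eBayes without trend. The median was -0.098 when probe sets were averaged and -0.14 without _s_at and _x_at probe sets. In C-Myc-sh over Ctrl-sh the members higher numbered 0 with median centring, and the median was -0.18 with quantile normalization, -0.44 with median centring, -0.25 with the mean of all probe sets and -0.42 without _s_at and _x_at probe sets. In C-Myc-sh over Slc7a5-sh the members higher numbered 3, 0, 4 and 0 with quantile normalization, median centring, no _s_at and _x_at probe sets and eBayes without trend. Of all tested genes 23%, 17.6%, 24% and 22.6% were higher under these settings. Those lower numbered 13 with quantile normalization, 13 with the mean of all probe sets and 9 without _s_at and _x_at probe sets, where 25 members were tested. These were 39.4%, 40.6% and 36% of the members tested, beside 26%, 19.9% and 21.6% of all tested genes. The median there was -0.091, -0.35, -0.19 and -0.17 with quantile normalization, median centring, the mean of all probe sets and no _s_at and _x_at probe sets.

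The 17 sign changes came only when other probe sets stood for the gene. Those averaged include probe sets under the filter level. With the mean of all probe sets these were HNRNPA2B1 (0.43 in Slc7a5-sh, 0.29 in C-Myc-sh), HNRNPR (-0.24 in Slc7a5-sh), SRSF1 (0.35 in C-Myc-sh) and, in C-Myc-sh over Slc7a5-sh, HNRNPC (0.00073) and SRSF4 (0.55). Without _s_at and _x_at probe sets they were HNRNPA2B1 (0.34 in Slc7a5-sh, 0.61 in C-Myc-sh, 0.27 between the knockdowns), HNRNPD (0.59, 1.23 and 0.64), HNRNPR (-1.10), SRSF11 (-0.31) and SRSF8 (-0.14) in Slc7a5-sh, and HNRNPM (0.21) and SRSF11 (0.19) between the knockdowns. With the replicate number as a block the counts of called members were 8 lower and 3 higher in Slc7a5-sh over Ctrl-sh, 21 and 2 in C-Myc-sh over Ctrl-sh and 22 and 1 between the knockdowns, and HNRNPM gained a call in both comparisons with Ctrl-sh (0.26 and -0.24). The shares of all tested genes were, in the same order, 10.7% and 14%, 26.2% and 28.5%, and 24.9% and 24.2%. In C-Myc-sh over Slc7a5-sh, calls were also lost under quantile normalization by HNRNPD, HNRNPDL, HNRNPR, HNRNPU, HNRNPUL2, SRSF3 and TRA2B, and when probe sets were averaged by HNRNPA2B1, HNRNPD, HNRNPDL, PTBP1, SRSF1 and SRSF3. The motif share was 18.8% over the whole 300-base window, beside 8.77% of all genes given a start, expressed in these cells or not. Signals near background, such as those of HNRNPLL and SRSF12, limit what can be read from them.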
